A study of Danio rerio with 7 samples.

Results

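The Pax3 and Pax7 paralogues of zebrafish are the genes pax3a, pax3b, pax7a and pax7b. They were taken by symbol from the rows of both deposited count tables, 4 genes out of 19648 gene names in all. The timeline table (17651 genes) has a row for all 4, and 3 of them, all but pax3b, were analysed in the table of the second 18 hpf library (18597 genes).

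Pax3 and Pax7 proteins are closely related transcription factors that bind DNA through a paired domain and a homeodomain. Pax3 genes act at the border of the neural plate, in the dorsal neural tube and in premigratory neural crest (NC) cells. In mouse and human, PAX3 acts with SOX10 on the gene for the melanocyte regulator MITF. In zebrafish, pax7a and pax7b are required for xanthophores, the yellow pigment cells. 3 other genes set the classes used here. gch2 encodes GTP cyclohydrolase, an early enzyme of pteridine synthesis that is high in xanthophore precursors. mitfa encodes the transcription factor that specifies melanophores, the black pigment cells, and dlx2a encodes a transcription factor of the arch NC that gives rise to the facial skeleton.

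All libraries came from AB strain embryos of the genotype Tg(sox10:nEOS)w18, whose NC cells make a photoconvertible nuclear protein under control of sox10. Cells of the migratory stream of the first pharyngeal arch were photoconverted, dissociated and sorted, without any treatment, at 12, 14, 18, 20, 24 and 30 hours post-fertilisation (hpf), 1 library each, with chemistry v2. A second 18 hpf library was made with chemistry v3. Each group is thus 1 library, so single stages could not be tested against each other, and chemistry and library cannot be told apart at 18 hpf. Levels are UMIs of a gene scaled to a total of 1000000 (CPM) with exact Poisson 95% intervals and shares of cells carry Clopper-Pearson 95% intervals. Both cover counting error only, and the Poisson intervals treat UMIs as independent although a cell can hold many.

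The timeline libraries held 131 to 516 cells with median depths of 10808 to 19222 UMIs, and the second 18 hpf library 979 cells with a median of 23038. Clusters named NC-like from marker lists held 220, 241, 129, 344, 215 and 72 cells in order of age, and 420 cells in the second 18 hpf library. The Pax3/7 genes, gch2, mitfa and dlx2a were left out of the clustering and of the lists. Of 7 early crest markers, 5 or 6 were found in at least 10% of NC-like cells of every library. The 30 hpf library stood apart, with 46 of its 131 cells called doublets and 8 of these among its NC-like cells, against 0 to 4 calls in each other library. 1 barcode occurred in 2 libraries.

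pax3a was detected in nearly all of the youngest cells and its level was lower in each older library. In NC-like cells it stood at 371 CPM at 12 hpf (351–393, 1186 UMIs), 245 at 14 hpf (227–264), 66.6 in the first 18 hpf library (55.4–79.4), 5.89 at 20 hpf (4.23–7.99) and 1.99 at 24 hpf (0.730–4.33, 6 UMIs). At 30 hpf there were 0 UMIs, which by a limit of 3 counts allows up to 3.18 CPM. The second 18 hpf library held 79.0 CPM (74.1–84.2), an interval that overlaps that of the first. The intervals of neighbouring timeline libraries did not overlap from 12 to 20 hpf, while that of 24 hpf overlapped the lower end of that of 20 hpf, so the order of these last libraries is within counting error.

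The same order was seen in the share of cells. A pax3a UMI was found in 211 of 220 NC-like cells at 12 hpf (95.9%, 92.4–98.1), 57.7% at 14 hpf (51.2–64.0), 26.4% in the first 18 hpf library (19.0–34.8), 24.8% in the second 18 hpf library (20.7–29.2), 5.52% at 20 hpf (3.36–8.49) and 3 of 215 cells at 24 hpf (1.40%, 0.289–4.02). With each cell thinned to 5000 UMIs, which left out no cell, these shares were 76.4%, 44.8%, 16.3%, 14.8%, 1.74% and 0.465%. In blood, endothelial and cardiac-like cells, which should lack the gene, 1 of 493 cells held pax3a (0.203%, 0.00514–1.12) at a median depth of 13591 UMIs, against 16422 in NC-like cells. The interval of the share at 24 hpf overlapped that of this background. All 3 cells with pax3a at 24 hpf held gch2 or mitfa, no dlx2a, and both pax7a and pax7b.

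pax3b was nearly undetected. Its 5 UMIs among the 1875 timeline cells comprised 1 UMI in the 1221 NC-like cells, in a cell of 20 hpf that also held gch2 or mitfa, and 4 UMIs in neural-like cells of 14, 18 and 20 hpf. It did not pass the filter on low counts in any test below.

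pax7b stood above pax7a in UMIs at 14 hpf, with 35 against 2. At 12 hpf, 0 of 220 NC-like cells held a pax7b UMI, which by a limit of 3 counts allows up to 1.36% of cells with a UMI and 0.939 CPM. At 14 hpf, 11 of 241 cells held 35 pax7b UMIs (12.3 CPM, 8.57–17.1). The level was 37.8 CPM at 18 hpf (29.5–47.7), 43.3 in the second 18 hpf library (39.7–47.2), 27.4 at 20 hpf (23.7–31.6) and 34.1 at 24 hpf (27.9–41.4). From 18 to 24 hpf these intervals overlapped between neighbouring timeline libraries, so no order is read among them. At 30 hpf 0 UMIs were counted in 72 cells, which by the same limit allows 3.18 CPM and 4.17% of cells with a UMI. The 64 of these cells not called doublets likewise held 0 UMIs of every member.

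pax7a was close to 0 until 14 hpf and then higher in each timeline library up to 24 hpf. NC-like cells held 1 pax7a UMI at 12 hpf and 2 at 14 hpf (0.703 CPM, 0.0852–2.54). The level was 21.3 CPM at 18 hpf (15.2–29.0), 67.5 at 20 hpf (61.5–73.9) and 188 at 24 hpf (173–204), with intervals that did not overlap. The second 18 hpf library, at 78.9 CPM (74.0–84.0), stood well above the first 18 hpf library and just above that of 20 hpf. Libraries of the same age thus differed beyond these intervals, so the intervals do not set an order by age. Cells with gch2 or mitfa and no dlx2a were 3 of 129 NC-like cells in the first 18 hpf library and 40 of 420 in the second. They were 45 of 344 at 20 hpf and 30 of 215 at 24 hpf, and their part in the level over all NC-like cells was not tested. The 470 pax7a UMIs of 20 hpf lay in 36 cells and the 567 of 24 hpf in 23 cells, so the intervals are too narrow. The share of cells changed far less than the level, from 10.1% at 18 hpf (5.48–16.6) to 10.5% at 20 hpf (7.44–14.2), 10.7% at 24 hpf (6.90–15.6) and 10.95% in the second 18 hpf library (8.13–14.3). After thinning to 5000 UMIs these shares were 5.43%, 7.56%, 10.2% and 8.57%. At 30 hpf pax7a was again at 0 of 72 cells. Blood, endothelial and cardiac-like cells held 1 UMI each of pax7a and pax7b in 493 cells. gch2 and mitfa were also at 0 UMIs in the NC-like cells of 30 hpf, while dlx2a was found in 68 of the 72 cells.

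**Figure D1:**
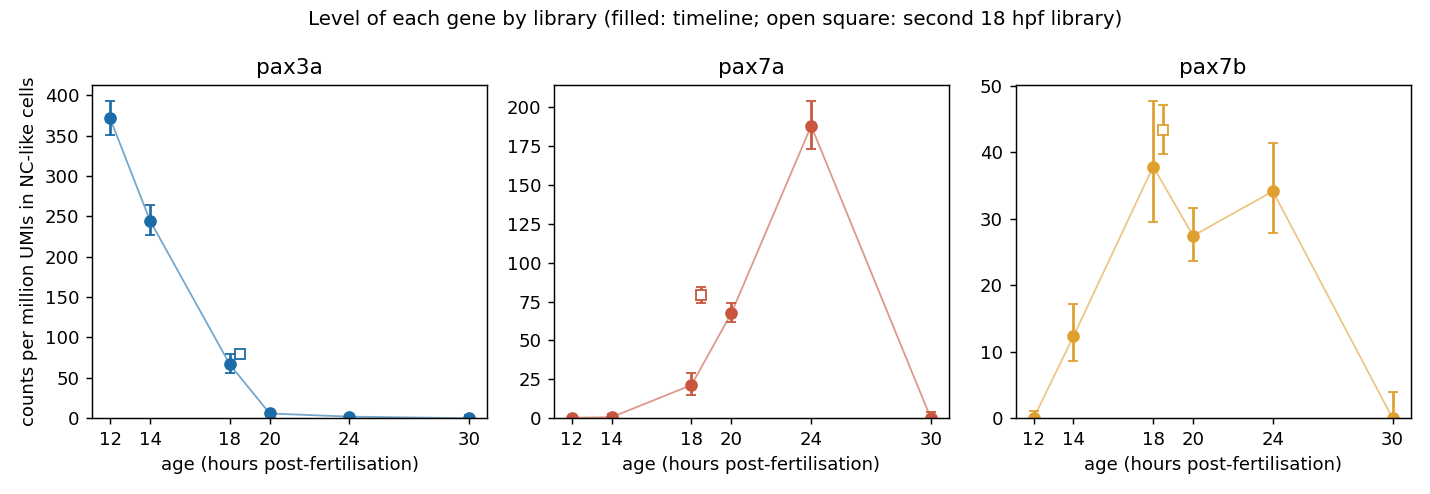
Level of pax3a, pax7a and pax7b (CPM, vertical axis from 0, a separate scale for each gene) against age in hpf, over all NC-like cells of each library, with exact Poisson 95% intervals; filled points joined by a line are the timeline and the open square, drawn slightly to the right, is the second 18 hpf library. pax3a falls from 371 CPM at 12 hpf to 1.99 at 24 hpf, pax7a reaches 188 CPM at 24 hpf, and all 3 are at 0 at 30 hpf.

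The trend over age was fitted across all genes on counts summed over the NC-like cells of the 6 timeline libraries (edgeR quasi-likelihood test, Benjamini-Hochberg adjustment). pax3a fell by 0.65 log2 units per hour (SE 0.07, adjusted p = 0.00563). Of 8659 genes tested, 1.47% fell by this test and 3.51% passed in either direction. The pax3a slope was the same without the 30 hpf library (-0.65, edgeR adjusted p = 0.0067) and passed under every alternative tried, with slopes of -0.75 to -0.59 when single libraries were left out. pax7a had a slope of 0.41 per hour (SE 0.22, adjusted p = 0.339) and pax7b of 0.05 (SE 0.16, adjusted p = 0.904), neither past the threshold. Without the 30 hpf library, where both are at 0, the pax7a slope was 0.70 (SE 0.08, edgeR adjusted p = 0.00416) and that of pax7b 0.28 (adjusted p = 0.268). A straight line on the log2 scale does not describe genes that appear and then are at 0, and the size of a fitted slope through libraries at 0 depends on the prior count. Summed neural markers, a cell type in which pax3a is also found, stood in NC-like cells at 230 CPM at 12 hpf, 80.9 at 14 hpf and 18.1 to 96.4 later. 4 to 8 of the 10 markers had a UMI, with pax2a at 0 from 12 to 24 hpf, and their part in the slope was not tested.

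Other genes of the NC were tested in the same fit. Of 20 genes of the crest border and early crest, 18 were tested and 7 fell with age, none rising, with a median slope of -0.21 against -0.001 over all genes. The fastest to fall were vox (slope -1.02, SE 0.08, edgeR adjusted p = 0.00357), a homeobox repressor of the early embryo, and zic2b (slope -0.82, SE 0.04, edgeR adjusted p = 0.000159), a zinc finger factor of the neural plate border. Of 14 arch ectomesenchyme genes tested, 9 rose, led by dlx4a (1.02, SE 0.06) and barx1 (0.73, SE 0.13), homeobox genes of the arches. None of the 10 xanthophore, 5 melanophore and 3 iridophore or shared chromatophore genes tested passed in edgeR. At an unadjusted p under 0.05 there were 3, 1 and 2 of them, and DESeq2 called 1, 2 and 2.

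Co-detection in single cells described which cells held pax3a, pax7a or pax7b at each age. At 12 hpf, 210 of 220 NC-like cells held pax3a without pax7a or pax7b, and 1 cell held pax3a with pax7. At 14 hpf, 12 cells held pax7a or pax7b and pax3a was found in all 12 (100%, 73.5–100). Of these, 10 held pax7b alone beside pax3a. At 18 hpf, 14 of 21 cells with pax7 also held pax3a (66.7%, 43.0–85.4), and in the second 18 hpf library 51 of 64 did (79.7%, 67.8–88.7). At 20 hpf the count was 13 of 37 (35.1%, 20.2–52.5) and at 24 hpf 3 of 23 (13.04%, 2.78–33.6). Among cells with pax7, those that also held pax3a were thus the greater number up to 18 hpf and the smaller number at 20 and 24 hpf. Cells with none of pax3a, pax7a and pax7b were 9 of 220 at 12 hpf, 102 of 241 at 14 hpf and 88 of 129 at 18 hpf. They were 301 of 344 at 20 hpf and 192 of 215 at 24 hpf, so most NC-like cells of these ages held neither kind. Each library is a separate sample and single cells were not followed.

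Read the other way, pax7b was found more often in pax3a-positive than in pax3a-negative cells of every library from 14 to 20 hpf. Of pax3a-positive NC-like cells, pax7b was found in 7.91% at 14 hpf (4.02–13.7), 32.4% at 18 hpf (17.4–50.5), 46.2% in the second 18 hpf library (36.3–56.2) and 57.9% at 20 hpf (33.5–79.7). Among pax3a-negative cells the pax7b share was 0 of 102 cells, 4.21%, 2.22% and 6.15% in the same libraries. Within cells holding gch2 or mitfa and no dlx2a, the difference was smaller and the intervals overlapped. There, pax7b was found in 88.6% (73.3–96.8) of pax3a-positive and 80.0% (28.4–99.5) of pax3a-negative cells of the second 18 hpf library. At 20 hpf these shares were 84.6% (54.6–98.1) and 56.25% (37.7–73.6). The part of cell class in the difference was not tested. From 18 hpf on the intervals of the pax3a-positive shares overlapped. All 3 cells with pax3a at 24 hpf also held both pax7a and pax7b. In shallower cells a UMI is more easily missed. Thinned to 5000 UMIs, the pax3a share of pax7 cells was 87.5% at 14 hpf (7 of 8), 64.3% at 18 hpf, 66.7% in the second 18 hpf library, 17.2% at 20 hpf and 4.55% at 24 hpf, in the same order of age.

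**Figure D2:**
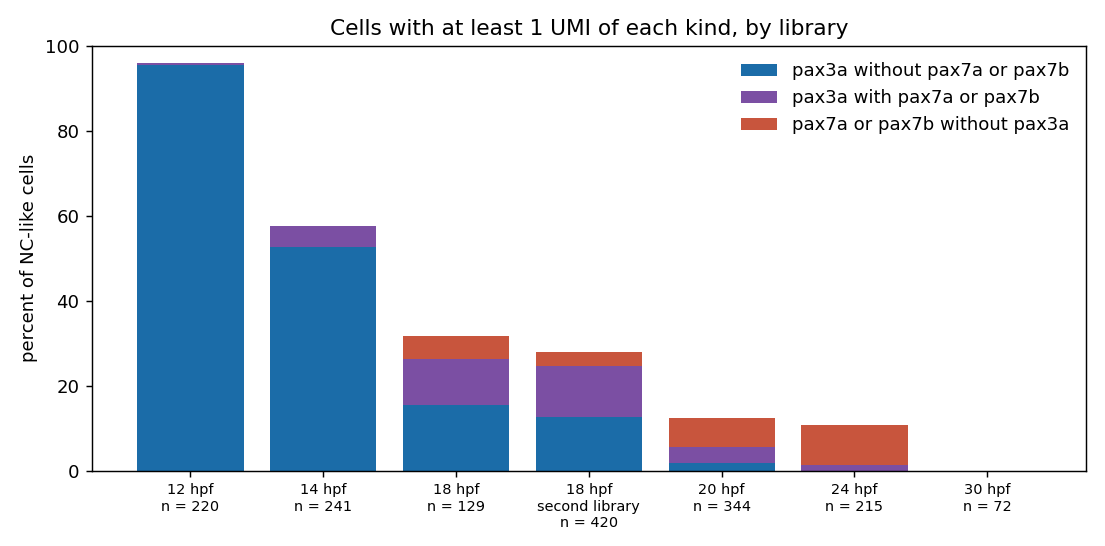
Percent of NC-like cells (vertical axis, 0–100) with at least 1 UMI of pax3a without pax7a or pax7b (blue), of both kinds (purple) or of pax7a or pax7b without pax3a (red), in each library, with the number of NC-like cells under each bar; the rest of each bar to 100 is cells with none of them. Cells with pax7 all held pax3a at 14 hpf (12 of 12), while at 24 hpf 20 of 23 did not.

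The pax7 paralogues largely shared their cells after 18 hpf. pax7a and pax7b were found together in 1 cell at 14 hpf, where 10 others held pax7b alone. Both were found in 7 cells at 18 hpf (6 with pax7a alone, 8 with pax7b alone), 37 cells in the second 18 hpf library (9 and 18), 30 at 20 hpf (6 and 1) and 19 at 24 hpf (4 and 0). The balance of UMIs lay further towards pax7a in each older timeline library from 14 to 24 hpf. It also differed between the first and second 18 hpf libraries, whose intervals did not overlap although their age is the same. Of all pax7a and pax7b UMIs, pax7a made up 5.41% at 14 hpf (0.661–18.2), 36.0% at 18 hpf (27.1–45.7), 64.6% in the second 18 hpf library (62.1–67.0), 71.1% at 20 hpf (67.5–74.5) and 84.6% at 24 hpf (81.7–87.3). These are shares of UMIs of 2 genes within a library and not levels per transcript length, and the exact binomial intervals treat UMIs as independent although a cell holds many.

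The cells with both kinds of gene were also described by the lists of other genes. At 14 hpf, where gch2 and mitfa were at 0 UMIs in every NC-like cell, dlx2a was found in 0 of the 12 cells with pax3a and pax7, 23.6% of those with pax3a alone and 52.0% of those with none. In the 12 cells the summed level of the crest border and early crest list was 6426 CPM, against 4679 in the 127 cells with pax3a alone and 3512 in the 102 cells with none. At 18 hpf the same sums were 5863 (14 cells), 4420 (20 cells) and 2333 CPM (88 cells). In the second 18 hpf library they were 4883 (51 cells), 3071 (53 cells) and 1677 CPM (303 cells). The arch ectomesenchyme list ran the other way in that library, at 311, 1774 and 3149 CPM. dlx2a was found there in 19.6% of cells with pax3a and pax7 and in 95.4% of cells with none. Pigment genes also differed there, with the melanophore list at 421, 53.6 and 7.48 CPM and the xanthophore list at 1441, 624 and 607 CPM. gch2 was found in 51.0%, 3.77% and 1.98% of these cells. In the first 18 hpf library the melanophore list stood at 169, 56.4 and 22.6 CPM. That sum covers 11 of the 13 melanophore genes, against 8 in the second library, so the 2 sets of values are not the same measure. The 13 cells of the second 18 hpf library with pax7 alone held 2848 CPM of the crest list and 437 of the melanophore list. These are sums over cells of 1 library each, so no test applies.

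NC-like cells were next divided by the marker genes, to set cells that had turned on pigment genes against those of the arch. Cells with a UMI of gch2 or mitfa and none of dlx2a are called pigment-marked, those with dlx2a and neither of the others dlx2a-marked, and those with none unmarked. There were 45 pigment-marked cells at 20 hpf, 30 at 24 hpf and 40 in the second 18 hpf library, against 259, 144 and 331 dlx2a-marked cells. The other libraries had 0 to 3 pigment-marked cells. The median depth of pigment-marked cells was 22283, 15180 and 30398 UMIs in these libraries and that of dlx2a-marked cells 20086, 13816 and 29054.

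In these 3 libraries most pax7a UMIs lay in pigment-marked cells. Its level there was 725 CPM in the second 18 hpf library (678–776), 463 at 20 hpf (422–508) and 1159 at 24 hpf (1062–1262). In dlx2a-marked cells of the same libraries it was 1.33 CPM (0.710–2.28), 0.194 (1 UMI) and 0 UMIs. The ratio was 544 in the second 18 hpf library (exact interval of the counts 316–1026) and 2384 at 20 hpf (426–94351), and at 24 hpf pigment-marked cells were 776-fold higher than a limit of 3 counts over the 144 cells (at least 629-fold with the counting error of the pax7a UMIs). 97.7% of pax7a UMIs at 20 hpf, 92.9% at 24 hpf and 89.2% in the second 18 hpf library lay in pigment-marked cells. By cell, 33 of 36, 21 of 23 and 30 of 46 cells with pax7a were pigment-marked. In the first 18 hpf library, with 3 pigment-marked cells, it was 1 of 13 cells and 27.5% of the UMIs, and at 14 hpf 0 of 2 cells.

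pax7b showed the same division. It stood at 377 CPM in pigment-marked cells of the second 18 hpf library (343–414), 189 at 20 hpf (163–218) and 213 at 24 hpf (173–260). In dlx2a-marked cells it was 1.85 CPM (1.09–2.92), 0.194 (1 UMI) and 0 UMIs. The ratio was 204 in the second 18 hpf library (128–348), and at 24 hpf the level was 143-fold above the limit of 3 counts (at least 114-fold with counting error).

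pax3a was also higher in pigment-marked cells, at levels that differed widely between libraries. It stood at 549.9 CPM in the second 18 hpf library (508–594), 35.3 at 20 hpf (24.6–49.1) and 13.2 at 24 hpf (4.84–28.7, 6 UMIs). In dlx2a-marked cells it was 13.03 CPM (10.9–15.5), 1.17 (0.428–2.54, 6 UMIs) and 0 UMIs. The ratio was 42.2 in the second 18 hpf library (34.8–51.5), 30.3 at 20 hpf (12.6–88.1) and 8.83 against the limit of 3 counts at 24 hpf (at least 5.20 with counting error). Within pigment-marked cells pax3a was thus high in the second 18 hpf library and low at 20 and 24 hpf, while pax7a was high in all 3 libraries. Of these, only the second 18 hpf library was made with chemistry v3, so age cannot be told apart from chemistry and library here. In the 3 pigment-marked cells of the first 18 hpf library pax3a stood at 466 CPM (285–719, 20 UMIs), with 16 UMIs in 1 cell. By cell, pax3a ran from 0 to 47 UMIs with a median of 13 in the second 18 hpf library, from 0 to 11 with a median of 0 at 20 hpf and from 0 to 4 with a median of 0 at 24 hpf. pax7a had medians of 17, 8 and 18 UMIs.

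**Figure D3:**
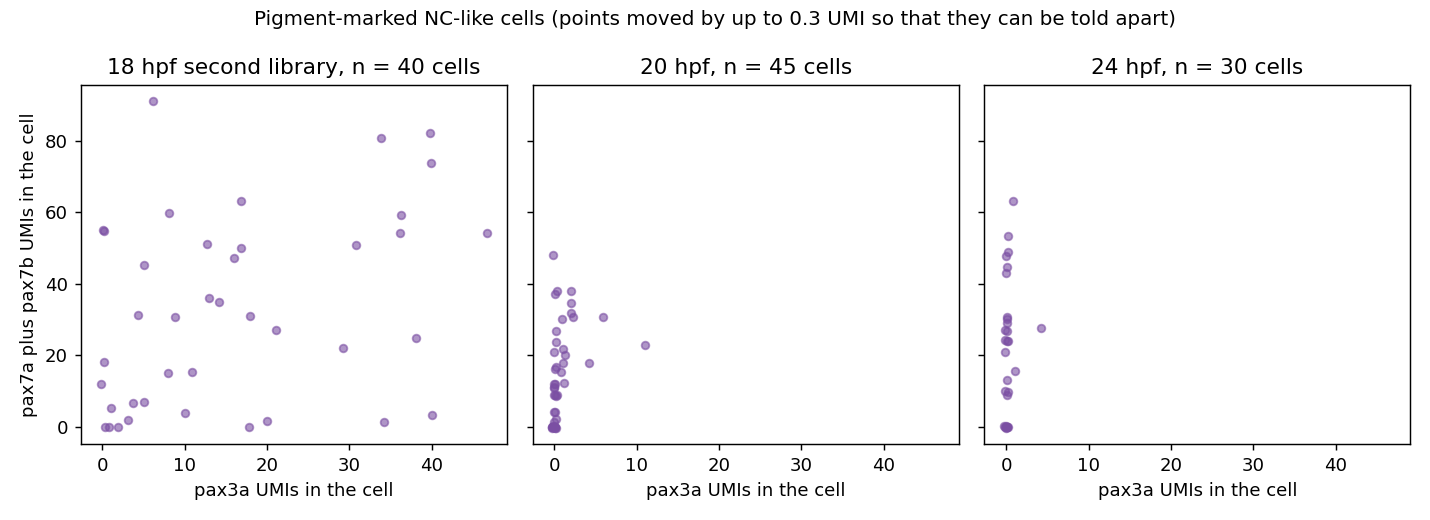
UMIs of pax3a (horizontal axis) against UMIs of pax7a plus pax7b (vertical axis) in each pigment-marked NC-like cell of the second 18 hpf (40 cells), 20 hpf (45 cells) and 24 hpf library (30 cells), each point 1 cell, not corrected for depth. Cells of the second 18 hpf library reach 47 pax3a UMIs, while at 24 hpf 27 of 30 cells have none.

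The test between pigment-marked and dlx2a-marked cells used counts summed by class in the 3 libraries with at least 10 cells of each, with the library as a block (edgeR quasi-likelihood, Benjamini-Hochberg adjustment). All 3 tested members were higher in pigment-marked cells in 3 of 3 libraries, where 10.2% of 7765 genes passed in that direction. The log2 difference was 9.94 for pax7a (SE 0.59, edgeR adjusted p = 0.000146), 8.32 for pax7b (SE 0.54, adjusted p = 0.00024) and 5.26 for pax3a (SE 0.41, adjusted p = 0.000355). Members at 0 in dlx2a-marked cells at 24 hpf make these sizes depend on the prior count. pax7a and pax7b, near 0 in dlx2a-marked cells, could pass the filter on low counts mainly through pigment-marked cells. Without the library block pax3a no longer passed (5.18, edgeR adjusted p = 0.0681), and left without the second 18 hpf library pax7a stood at 11.79.

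Markers of other cells were looked at in the same classes. Summed myeloid markers, since myeloid cells can hold mitfa, stood at 7.07, 66.0 and 0.847 CPM in pigment-marked cells of 20 hpf, 24 hpf and the second 18 hpf library, with 3, 2 and 1 of 9 markers seen, and at 3.30, 1.49 and 2.46 CPM in dlx2a-marked cells. spi1b, lcp1, mpx and mpeg1.1 were at 0 in pigment-marked cells of all 3 libraries, and at 24 hpf the UMIs came from coro1a and cebpa. Summed neural markers stood at 18.2, 224 and 19.5 CPM in pigment-marked cells and at 19.0, 14.9 and 18.4 CPM in dlx2a-marked cells. In the pigment-marked cells of 24 hpf 8 of 10 markers, sox2 and elavl3 among them, were at 0. The 102 UMIs there came from fabp7a and ncam1a. The part of these genes in the differences was not tested. Of blood, endothelial and cardiac-like cells, myeloid-like cells among them, 3.65% held gch2 (2.18–5.71) and 7.30% mitfa (5.17–9.97). These shares count cells with any number of UMIs, and the part of stray UMIs in them was not tested. As a class can rest on a single UMI, a stray UMI could place a cell in the wrong class. In NC-like cells of 24 hpf, gch2 was found in 17.8% of 152 cells of a cluster led by barx1 and dlx5a (34 UMIs). At 20 hpf it was found in 8.63% of 255 cells of a cluster led by grem2b and twist1a (26 UMIs). Where such cells also held dlx2a, they entered neither class. With at least 2 UMIs asked for, the log2 differences were 10.12, 9.20 and 5.31.

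Cells with dlx2a as well as gch2 or mitfa, left out of that test, held less pax7a and pax3a than pigment-marked cells. There were 34 at 20 hpf, 32 at 24 hpf and 19 in the second 18 hpf library. pax7a was found in 2 of them in each of these libraries, and pax3a in 0, 0 and 7 of them. Their pax7a stood at 13.9, 91.5 and 36.4 CPM, above the 0.194, 0 and 1.33 CPM of dlx2a-marked cells. Their pax3a stood at 0, 0 and 111 CPM, against 1.17, 0 and 13.03 CPM in dlx2a-marked cells.

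**Figure D4:**
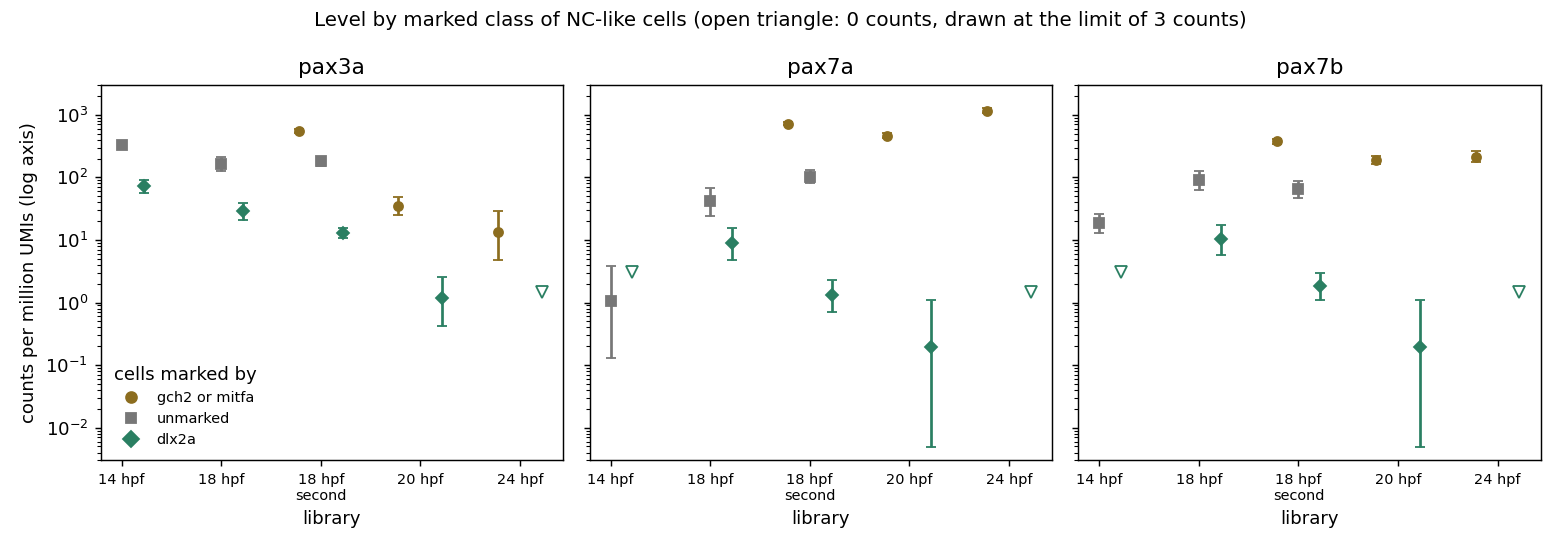
Level of each gene (CPM, log axis) in pigment-marked (brown), unmarked (grey) and dlx2a-marked (green) NC-like cells of 14, 18, 20 and 24 hpf and of the second 18 hpf library, for classes of at least 10 cells, with exact Poisson 95% intervals; an open triangle is a class with 0 counts, drawn at the level of 3 counts. In the 3 libraries with both classes, pigment-marked cells lie above dlx2a-marked cells for every gene, and pax3a in them is at 549.9 CPM in the second 18 hpf library and 13.2 at 24 hpf.

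Among pigment-marked cells, detection of pax7 differed with the markers they held. In cells with both gch2 and mitfa, pax7a was found in 20 of 20 cells of the second 18 hpf library, 28 of 29 at 20 hpf and 20 of 26 at 24 hpf. In cells with gch2 alone it was found in 7 of 9 cells of the second 18 hpf library and 3 of 4 at 20 hpf. In cells with mitfa alone it was found in 3 of 11 cells of the second 18 hpf library, 2 of 12 at 20 hpf and 0 of 3 at 24 hpf. pax7b was found in 7 of those 11 and 1 of those 12 cells, and pax3a in 10 and 1. pax7b was found in 20 of 20 cells with both markers in the second 18 hpf library, 25 of 29 at 20 hpf and 18 of 26 at 24 hpf. At 24 hpf, the 9 pigment-marked cells with no pax7 UMI held the melanophore list at 15399 summed CPM and gch2 at 343 CPM, against 1111 and 49819 CPM in the 21 cells with pax7. Their tyrp1b, an enzyme of melanin synthesis, stood at 730 UMIs, in 5 of the 9 cells, and at 0 UMIs in the 21 cells with pax7. aox5, an aldehyde oxidase marking xanthophores, had 1 UMI in the 9 cells and was found in all 21 of the others, with 297 UMIs. The iridophore and shared chromatophore list stood at 1306 CPM in the 9 cells and 633 CPM in the 21. Its gene pnp4a was found in 7 of the 9 and in all 21. At 20 hpf the 12 cells without pax7 held 1004 CPM of the melanophore list and the 33 with it 1437 CPM, while the xanthophore list stood at 996 and 3604 CPM. The iridophore and shared chromatophore list stood there at 48.7 and 334 CPM. These splits use a member's own detection within 1 library and were not tested.

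Summed over cells, the levels in unmarked cells lay between those of the other classes at 18 hpf. In the second 18 hpf library pax3a was at 180 CPM in 30 unmarked cells (150–214), pax7a at 102 (79.8–129) and pax7b at 64.8 (47.3–86.7). Pigment-marked cells were 3.06-fold (2.52–3.73), 7.10-fold (5.57–9.17) and 5.82-fold (4.28–8.10) higher than these. That was the only library with at least 10 cells of both classes, so this difference could not be tested. Of the 30 unmarked cells, 13 held pax3a, 9 pax7a and 9 pax7b, so these levels are means over cells with and without a UMI. Their median depth was 22142 UMIs, against 30398 in pigment-marked and 29054 in dlx2a-marked cells. The crest pigment markers used to name clusters stood at 186 CPM in them, against 877 in pigment-marked and 12.2 in dlx2a-marked cells. The part of missed gch2 or mitfa UMIs was not tested. In the first 18 hpf library 27 unmarked cells held 164 CPM of pax3a (126–210), 41.7 of pax7a and 91.2 of pax7b, against 29.2, 9.02 and 10.4 in dlx2a-marked cells. At 14 hpf all 11 cells with pax7b were unmarked, and pax3a was 333 CPM in unmarked cells (307–360) and 72.7 in dlx2a-marked cells (56.7–91.9). At 12 hpf the gap was small, 378 against 237 CPM (ratio 1.59, 1.15–2.27) with 10 dlx2a-marked cells.

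The test of dlx2a-marked against unmarked cells used the 12, 14 and 18 hpf libraries and the second 18 hpf library. All 3 tested members were lower in dlx2a-marked cells, where 1.51% of 6949 genes passed in that direction. pax3a differed by -2.43 (SE 0.25, edgeR adjusted p = 8.0e-07) and was lower in 4 of 4 libraries, pax7b by -4.27 (SE 0.40, adjusted p = 2.7e-07) and pax7a by -4.63 (SE 0.58, adjusted p = 9.2e-06). pax7a and pax7b, low in dlx2a-marked cells, could pass the filter on low counts mainly through unmarked cells. At 12 and 14 hpf both were at 0 UMIs in dlx2a-marked cells, so the sizes for these 2 genes depend on the prior count. pax7a had 1 UMI in all NC-like cells of 12 hpf and 2 in those of 14 hpf. pax7a rested on the second 18 hpf library, without which it did not pass (-2.24, edgeR adjusted p = 0.37), and a DESeq2 Wald test called pax3a (adjusted p = 0.023) but neither pax7a (0.271) nor pax7b (0.999). Without the library block 0 genes passed in edgeR, with 68 at an unadjusted p under 0.05. Summed neural markers stood at 351 CPM in unmarked and 18.4 CPM in dlx2a-marked cells of the second 18 hpf library, where all 10 markers had a UMI in unmarked cells, and at 26.1 to 233 CPM in unmarked and 37.5 to 186 CPM in dlx2a-marked cells of the other 3 libraries. Their part in the differences was not tested.

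The same fits gave the setting of these differences. Between pigment-marked and dlx2a-marked cells, 8 of 10 tested xanthophore genes were higher, led by slc2a15b (10.17, SE 0.50) and aox5 (8.93, SE 0.72), and mycla was lower (-2.22, SE 0.50). Of 13 melanophore genes 5 were tested and all 5 were higher, with slc45a2 (9.82, SE 0.65) and tyrp1a (9.39, SE 1.09) leading. Of 4 iridophore or shared chromatophore genes, 3 were higher, pnp4a most (12.15, SE 0.59) and then tfec (5.56, SE 0.51), and sox6 was lower (-1.28, SE 0.35). Of 11 arch ectomesenchyme genes 9 were lower, dlx5a and dlx4b most (-11.70, SE 0.75 and -11.52, SE 0.78). Of 13 crest border and early crest genes 6 were higher, led by msx1b (2.74, SE 0.31) and tfap2c (2.49, SE 0.60), and gbx2 was lower (-3.78, SE 0.44). The list medians ran from -7.58 for arch ectomesenchyme to 6.74 for melanophore genes, against -0.06 over all genes. Each named value passed at an edgeR adjusted p under 0.05. The classes were cut by pigment genes and dlx2a, so higher pigment genes and lower Dlx genes follow in part from the cut. Genes near 0 in dlx2a-marked cells could pass the filter on low counts mainly through pigment-marked cells. The counts of pigment genes therefore describe the classes and are no separate support.

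Between dlx2a-marked and unmarked cells, 6 of 16 crest border and early crest genes were lower, led by zic2a (-4.09, SE 0.85) and vox (-3.46, SE 0.70), and none was higher. 3 of 8 xanthophore genes were lower, slc2a15b and pts most (-5.48, SE 1.17 and -3.55, SE 0.87), as were trpm1b (-2.78, SE 0.30) and tfec (-3.32, SE 0.29). 4 of 7 arch ectomesenchyme genes were higher, with dlx5a (5.82, SE 0.70) and dlx3b (3.00, SE 0.49) leading. As dlx2a set these classes, higher Dlx genes can follow from the cut. Genes near 0 in 1 class could pass the filter on low counts mainly through the other class. These calls are those of edgeR, and most were lost in DESeq2, which called 3 crest border and early crest genes, 0 xanthophore, 0 melanophore, 1 iridophore or shared chromatophore and 0 arch ectomesenchyme genes.

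The genes whose levels were most like those of each member were sought over 14 profiles, each a marked class of at least 10 cells in 1 of 7 libraries, among 8303 genes with at least 100 UMIs. Likeness was Pearson's r of log2(CPM + 1). The profiles of 1 library share that library and its depth, and so r is given as a description. For pax3a these were sox10 (0.952), whose promoter drives the reporter and whose product is a central NC transcription factor, cxxc5b (0.946) and ved (0.943). For pax7a they were pcdh10a (0.987), a protocadherin, tfap2e (0.984), an AP-2 transcription factor, and atp6v1e1b (0.982), a subunit of the vacuolar proton pump. For pax7b they were hps4 (0.974), which in mammals serves the making of lysosome-related organelles, cax1 (0.965) and gnpda2 (0.964).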

How the data were processed

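Values in both deposited tables are unscaled UMI counts. The authors mapped reads to GRCz11 with Cell Ranger (version not given in the sources used here), aggregated the timeline libraries and removed cells of low quality before deposit. Whether aggregation equalised depth is not stated. A number ending each timeline barcode gave its library, matched to the sample number in the labels. All 2854 cells passed filters of 500 genes and 10% mitochondrial counts. Doublets were called with Scrublet and kept, with removal as an alternative. Each table was clustered in scanpy 1.11.5 (2000 variable genes, 13 components, 20 neighbours, Leiden resolution 0.8), and clusters were named from marker lists when at least 3 markers were raised 2-fold. 1 cluster of 110 timeline cells and 2 of the second library stayed unnamed. Summed counts were tested in edgeR 4.0.16 by quasi-likelihood with TMM scaling and filterByExpr. DESeq2 1.42.0 was an alternative. Fits were tested on simulated data. Each SE is the log2 value over the square root of its F statistic.

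The class test had been planned on libraries with at least 10 cells of all 3 classes, which only the second 18 hpf library has, so each pair of classes was fitted on the libraries holding both. No label says that samples came from separate clutches, so p-values measure only the spread between these libraries. The members, lists and tests were chosen with earlier results of these data known. Genes named are the members, the class markers, the 3 genes most like each member, and the 2 of each list that changed most in each direction among those that passed. Other alternatives changed the cells used, class rule, depth, filter and libraries.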

Additional observations from a re-analysis of the deposited data

Results flagged for a closer look

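Neural-like cells, which entered the fits over all cells but no main comparison, held Pax3/7 UMIs above the level in blood, endothelial and cardiac-like cells. pax3a stood at 77.3 CPM in 112 neural-like cells (63.2–93.6, 105 UMIs), against 0.630 CPM in those cells (0.204–1.47). By library it was 140 CPM at 12 hpf (93.6–201), 104 at 14 hpf (67.6–154), 48.3 in the first 18 hpf library (24.1–86.5), 65.4 at 20 hpf (42.7–95.9) and 57.4 at 24 hpf (31.4–96.2), with 0 UMIs in 5 cells of 30 hpf. At 20 and 24 hpf these levels are above those of all NC-like cells, 5.89 and 1.99 CPM. pax7a stood at 14.7 CPM in neural-like cells (8.995–22.7, 20 UMIs), 11 of the 20 UMIs in 2 cells of 24 hpf, against 0.126 CPM in blood, endothelial and cardiac-like cells. The dorsal neural tube is a known site of pax3a and pax7a. In the second 18 hpf library no cluster was named neural-like. An NC-like cluster of 97 cells there was led by prdm12b, elavl3, foxd3, her4.2 and her12. Of these, elavl3 is in the neural list and foxd3 in the early crest list. dlx2a was found in 80 of the 97 cells of this cluster and mitfa in 13. The cluster held pax3a at 108 CPM (95.4–121, 284 UMIs), and the part of neural cells in it was not tested.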

How the results depend on the processing

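The fall of pax3a with age and the higher level of pax7a and pax7b in pigment-marked than in dlx2a-marked cells kept their direction and their call under every alternative run. With single libraries left out, slopes ran from -0.75 to -0.59 for pax3a, from 0.22 to 0.70 for pax7a, which passed without 30 hpf, and from -0.10 to 0.28 for pax7b. The pax7b slope was reversed without 12 hpf (-0.10) and without 24 hpf (-0.01). Without the library block pax3a missed the threshold in both class tests (5.18 and -1.88), as did pax7b between dlx2a-marked and unmarked cells (-3.39), and there the DESeq2 Wald test gave -3.02 for pax7a and -3.64 for pax7b. With single libraries left out pax7a there ran from -4.72 to -2.24. It was not tested there without 18 hpf, with cells thinned to 5000 UMIs or without the library block. The cause was not tested.

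Genes called for age were 304, and 744 by DESeq2, 463 over all cells, 188 thinned, 509 unfiltered and 59 to 482 with single libraries left out. Between pigment-marked and dlx2a-marked cells 1418 were called, and 2421 over all cells, 942 thinned, 2391 unfiltered, 731 without the block and 800 to 2004 with single libraries left out. Between dlx2a-marked and unmarked cells 138 were called, and 27 by DESeq2, 3433 over all cells, 0 without the block, 238 with gch2 and 309 with mitfa as the only pigment marker, and 43 to 175 with single libraries left out.

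pax3a at 12 hpf was 398 CPM thinned to 8000 UMIs. pax7a at 24 hpf was 110.2 CPM over all cells and 153 thinned to 5000. pax7b at 18 hpf was 22.8 CPM over all cells. The share of pax7 cells with pax3a, thinned to 5000, was 66.7% in the second 18 hpf library and 17.2% at 20 hpf. Of 152 further levels and shares under alternatives, 37 left their interval, 17 of them over all cells and none with doublets removed. The comparison of pigment-marked with unmarked cells had 1 library, so none of its alternatives was run.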
